A study of Mus musculus with 7 samples.

Results

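Fatty acid oxidation was examined through 31 genes, chosen by gene name from the deposited table of counts, which holds 54532 genes. All 31 names were found, once each, and all 31 passed the filter on low counts. By the usual location of the protein, 18 members were counted as mitochondrial, 8 as peroxisomal, and 5 as present in both or in another compartment. The libraries were made from whole kidney of male C57BL/6J animals, 6 to 8 weeks old. Cisplatin, a platinum drug that injures kidney tubules, was given at 20 mg/kg into the tail vein of all animals, so both groups carry the injury and no uninjured kidney was analysed here. The labels name 4 libraries saline and 3 libraries DXZ, a code they do not spell out. DXZ was injected by the same route at 40 mg/kg, 30 min ahead of cisplatin and again each 24 h over 3 days. The labels do not say that each library came from a separate animal, so p-values measure the spread between these samples, which may be technical.

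Fatty acids are oxidised by repeated shortening of their acyl-CoA esters, through a dehydrogenation, a hydration, a further dehydrogenation and a thiolytic cleavage. Mitochondria carry out this spiral on most chains, which enter as carnitine esters, and pass the electrons to the respiratory chain. Peroxisomes shorten very long, branched and bile-acid-type chains, with oxidases that hand the electrons to oxygen. Proximal tubule cells of the kidney draw much of their energy from this pathway, and many of its genes are targets of the nuclear receptor PPARA, encoded by Ppara.

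Total counts ran from 16058157 to 18133736 per library, and the members held 0.782% (DXZ 1) to 1.16% (DXZ 3) of them. The defining kidney markers were present: Slc34a1 (119 to 4332 CPM) and Lrp2 (222 to 1167 CPM) of the proximal tubule, Slc12a1 (278 to 1150.0 CPM) of the thick ascending limb and Aqp2 (302 to 2075 CPM) of the collecting duct. CPM is a count relative to the TMM-scaled size of its library. Libraries of 1 group differed from each other, and the count of genes that edgeR called across the whole table, 853 with all libraries, was 4 without saline 4, 1 without DXZ 2 and 1574 without DXZ 1.

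All members were well expressed, with means between 20.2 and 413 FPKM (fragments scaled by gene length and library size, the scale on which genes can be compared) in saline. Ehhadh, the peroxisomal bifunctional enzyme of the PPARA-induced branch, had the highest mean, 413 ± 123 FPKM (SD, n = 4). It was followed by Ech1, an isomerase for unsaturated chains, at 283 ± 48.2 FPKM (SD, n = 4), Acaa2, the last thiolase of the mitochondrial spiral, at 272 ± 73.6 FPKM (SD, n = 4), and Acaa1b, a peroxisomal thiolase, at 232 ± 59.7 FPKM (SD, n = 4). The spread of the saline libraries covers the distances between these 3 followers, so their order is not settled. Ehhadh led on the mean but not in every library, since Ech1 was above it in saline 2 (259.7 against 246 FPKM) and in DXZ 1 (206 against 167 FPKM). The lowest were Acox3, a peroxisomal oxidase of branched chains, at 20.2 ± 1.73 FPKM (SD, n = 4), Slc25a20, the carnitine-acylcarnitine carrier, at 27.8 ± 4.98 FPKM (SD, n = 4), and Etfdh, the enzyme that passes electrons to ubiquinone, at 28.7 ± 3.03 FPKM (SD, n = 4). Mitochondrial and peroxisomal members were mixed along this order.

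**Figure D1:**
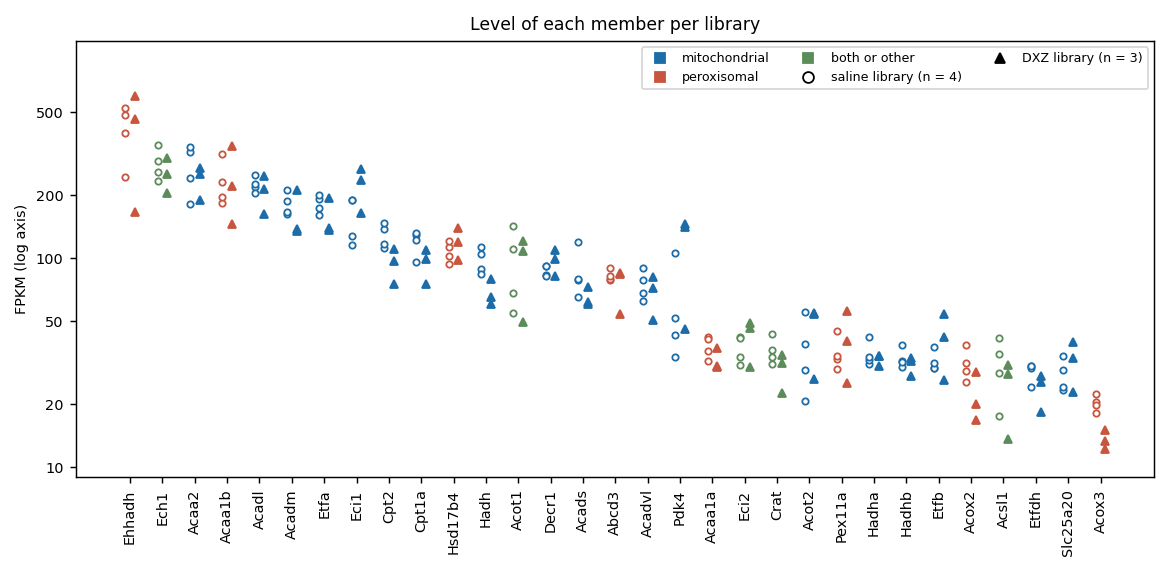
Level of each of the 31 members in FPKM (log axis), ordered by the saline mean. Circles are the 4 saline libraries, triangles the 3 DXZ libraries, and colours mark the compartment; Ehhadh stands highest, at a saline mean of 413 FPKM, and Acox3 lowest, at 20.2 FPKM.

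Of 31 members 1 fell and 0 rose by edgeR's quasi-likelihood test at an adjusted p below 0.05, beside 5.56% of all 15351 genes tested called in either direction, 2.31% called lower and 3.24% called higher in DXZ. The member that fell was Acox3. In bulk kidney, fewer cells of a type and less RNA per cell cannot be told apart. At an unadjusted p under 0.05 there were 4 members (12.9%), all lower in DXZ, against 25.4% of all genes tested, and DESeq2 called 2 members, both lower. The 4 saline and 3 DXZ libraries did not overlap for 3 members, Acox3, Hadh and Cpt2, all lower in DXZ, beside 11.3% of all genes tested not overlapping in that direction and 12.8% in the other. The 95% interval of the fold change lay within 2-fold on either side for 27 of 31 members (87.1%) and for 64.7% of all genes tested, so for most members a change of 2-fold or more lay outside the interval. The 4 members whose interval reached past 2-fold were Pdk4, Acot2, Eci1 and Acsl1. Intervals could be wide and still lie within 2-fold, as for Ehhadh (-0.97 to 0.95) and Acot1 (-0.92 to 0.88), both wider than that of Eci1.

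Mitochondrial and peroxisomal members had similar medians. The median log2 fold change, DXZ over saline, was -0.12 over 18 mitochondrial members, 12 of them negative and 6 positive, and -0.08 over 8 peroxisomal members, 5 negative and 3 positive. It was -0.15 over the 5 members of both or other compartments, -0.13 over all 31, and 0.01 over all genes tested. The mitochondrial median fold change less the peroxisomal one was -0.04. A different measure took the medians library by library, from log2 CPM centred on the 7 libraries. Its mitochondrial less peroxisomal values were -0.206, -0.040, -0.001 and -0.008 (saline, by number) and 0.204, -0.067 and -0.024 (DXZ, by number). Only DXZ 1 was positive. The SD of 0.12 between libraries of a group belongs to these values and is not an error of -0.04. The difference in median fold change also changed sign with the processing. It was -0.19 without DXZ 1, 0.06 without DXZ 3, and 0.03 with the 5 members of both or other compartments counted as peroxisomal. Members are not replicates of a condition, so no test was made of these medians.

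**Figure D2:**
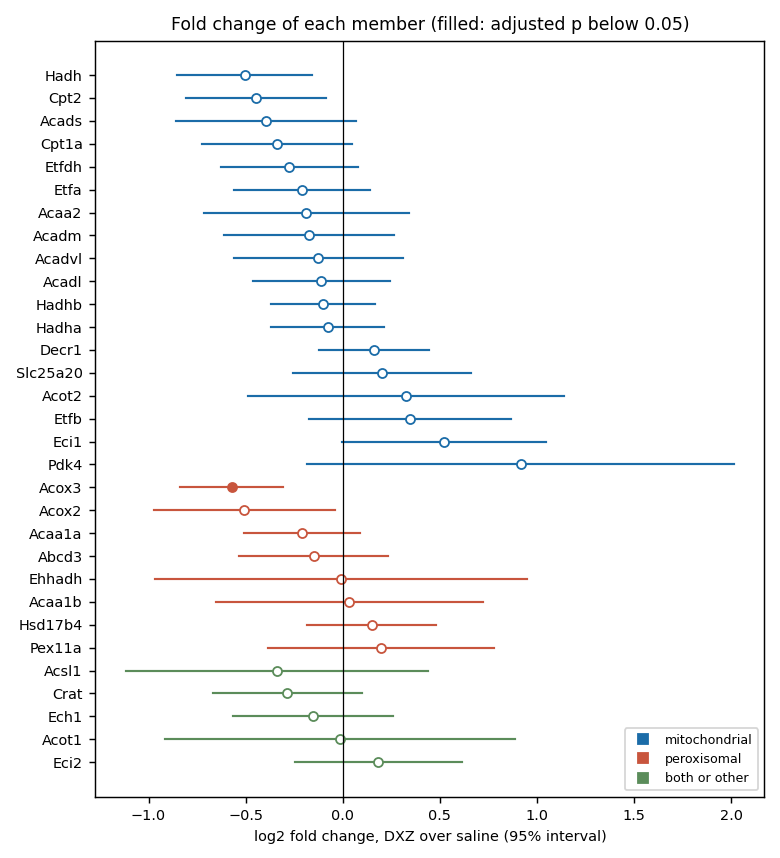
Log2 fold change of each member, DXZ over saline, with its 95% interval from edgeR's fit; colours mark the compartment and a filled point an adjusted p below 0.05. Acox3, at -0.57, is the filled point, and the intervals of Hadh, Cpt2 and Acox2 also lie below 0 without passing the adjusted test.

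Acox3 starts the peroxisomal oxidation of branched-chain acyl-CoAs by transferring electrons to oxygen. Acox3 (ENSMUSG00000029098; chromosome 5, 35583040 to 35615352, plus strand) was at 237, 229.6, 211 and 258 CPM in saline 1 to 4 and 158, 140.1 and 174 CPM in DXZ 1 to 3. Every DXZ library was below every saline library. The mean was 234 ± 19.2 CPM (SD, n = 4) in saline and 157 ± 17.1 CPM (SD, n = 3) in DXZ (log2 fold change -0.57 ± 0.12 (SE), adjusted p = 0.0361 by edgeR, 95% interval -0.84 to -0.31). The call was kept without DXZ 1 (edgeR adjusted p = 0.0443) and lost when any other single library was left out, with edgeR adjusted p-values from 0.0511 to 0.107. Its log2 fold change over the 7 fits with 1 library left out ran from -0.66 to -0.51. An annotated antisense transcript shares 6.08% of its exon bases, and the strand setting of the counting is not given in the sources used here.

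Hadh encodes the mitochondrial dehydrogenase of short and medium 3-hydroxyacyl-CoAs. Hadh (ENSMUSG00000027984; chromosome 3, 131233419 to 131272101, minus strand) was at 564, 443, 422 and 521 CPM in saline 1 to 4 and 308, 323 and 399.9 CPM in DXZ 1 to 3. The groups did not overlap, although the highest DXZ library was close to the lowest saline library. The difference did not pass edgeR's test (log2 fold change -0.51 ± 0.15 (SE), adjusted p = 0.0874 by edgeR, 95% interval -0.85 to -0.16), while DESeq2, used as an alternative, called it (-0.51, DESeq2 adjusted p = 0.0176). Cpt2, in the inner mitochondrial membrane, turns imported acylcarnitines back into acyl-CoAs. Cpt2 (ENSMUSG00000028607; chromosome 4, 107903981 to 107923610, minus strand) was at 332, 270.4, 282 and 353 CPM in saline 1 to 4 and 184, 231 and 265 CPM in DXZ 1 to 3. DXZ 3 lay just under saline 2, and the difference did not pass (log2 fold change -0.45 ± 0.16 (SE), adjusted p = 0.124 by edgeR, 95% interval -0.81 to -0.09). Without DXZ 1, Cpt2 was at -0.32 and Hadh at -0.43.

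**Figure D3:**
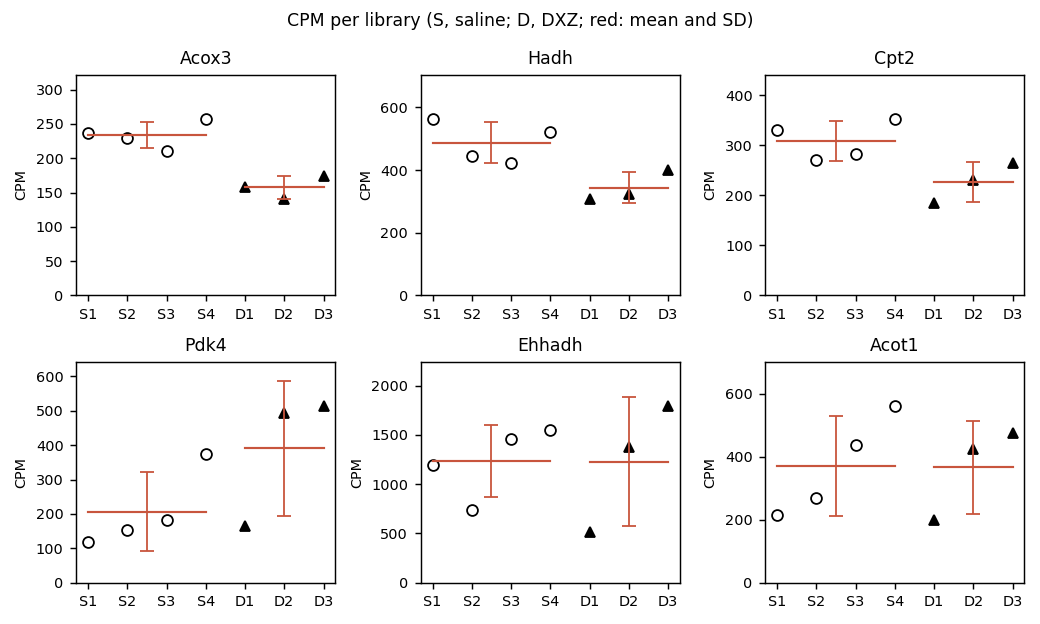
CPM of 6 members in each library (S, saline 1 to 4; D, DXZ 1 to 3), with the group mean and SD in red and axes starting at 0. The groups separate for Acox3, Hadh and Cpt2; for Pdk4, Ehhadh and Acot1 they overlap and DXZ 1 lies far below DXZ 2 and DXZ 3.

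The 250 bases upstream of the RefSeq start of these 3 genes are shown because they were the members whose groups did not overlap (GRCm38.p6, 5′ to 3′ on the gene's strand). Capitals mark GGGCGG or its reverse complement CCGCCC, the core of a GC box, with overlapping matches joined.
Acox3, chr5:35582784-35583033, plus strand: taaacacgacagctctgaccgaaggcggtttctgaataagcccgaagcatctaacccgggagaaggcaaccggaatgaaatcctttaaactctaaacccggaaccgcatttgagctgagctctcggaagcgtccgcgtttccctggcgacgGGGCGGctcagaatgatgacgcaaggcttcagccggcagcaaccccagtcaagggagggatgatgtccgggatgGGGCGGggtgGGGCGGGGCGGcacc
Hadh, chr3:131272102-131272351, minus strand: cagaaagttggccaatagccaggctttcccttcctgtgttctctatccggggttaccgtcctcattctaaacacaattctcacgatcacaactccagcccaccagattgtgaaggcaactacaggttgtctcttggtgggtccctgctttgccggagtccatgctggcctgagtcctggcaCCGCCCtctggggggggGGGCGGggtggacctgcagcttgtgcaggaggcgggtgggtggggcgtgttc
Cpt2, chr4:107923590-107923839, minus strand: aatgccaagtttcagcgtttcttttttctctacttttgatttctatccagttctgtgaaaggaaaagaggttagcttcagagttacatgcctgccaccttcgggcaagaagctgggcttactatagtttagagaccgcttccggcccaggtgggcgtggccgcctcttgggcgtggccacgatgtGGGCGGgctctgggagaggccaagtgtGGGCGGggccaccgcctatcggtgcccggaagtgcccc
The stretches held 4, 2 and 2 matches and were 60.0%, 59.6% and 56.8% G and C. Windows of 300 bases, 250 before and 50 after the start, were searched for GGGCGG on either strand. It was present in 19 of 30 windows of members and in 35.7% of all 32851 RefSeq windows. All members passed the filter on low counts, while the RefSeq windows were not limited to such genes. A match describes letters and is not evidence of a bound site. Windows were found for 27 of 31 members; Acaa2, Decr1, Hsd17b4 and Crat had none.

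The genes for entry into mitochondria differed in sign, with Cpt2 negative as above. Cpt1a makes the acylcarnitines and is the regulated step of entry. It was at 561, 415, 528 and 565 CPM in saline 1 to 4 and 329, 425 and 473 CPM in DXZ 1 to 3 and did not pass (log2 fold change -0.34 ± 0.17 (SE), adjusted p = 0.251 by edgeR). Only DXZ 3 and DXZ 2 reached the range of the saline libraries. Slc25a20 carries the acylcarnitines across the inner membrane and was at 114, 118, 142 and 165 CPM in saline 1 to 4 and 113, 160.1 and 193 CPM in DXZ 1 to 3 (log2 fold change 0.20 ± 0.20 (SE), adjusted p = 0.572 by edgeR). Its groups overlapped, and DXZ 3 was the highest of the 7.

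The 4 acyl-CoA dehydrogenases, which open each turn of the spiral for very long (Acadvl), long (Acadl), medium (Acadm) and short (Acads) chains, had log2 fold changes between -0.40 and -0.11 and edgeR adjusted p-values between 0.263 and 0.725. Acadm was at 834, 643, 659 and 731 CPM in saline 1 to 4 and 553, 524 and 829.8 CPM in DXZ 1 to 3. DXZ 1 and DXZ 2 lay below all saline libraries and DXZ 3 was level with the highest. Acads was at 273, 179.6, 149 and 180.2 CPM in saline 1 to 4 and 139.9, 139 and 167 CPM in DXZ 1 to 3, with saline 1 apart from the rest (log2 fold change -0.40 ± 0.20 (SE), adjusted p = 0.263 by edgeR). Acadl was at 453 ± 35.3 CPM (SD, n = 4) and 419.6 ± 83.6 CPM (SD, n = 3). Acadvl had a log2 fold change of -0.13, and 42.9% of its exon bases are shared with Dvl2 on the opposite strand, so that reads of the pair cannot be told apart if counting ignored strand.

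Hadha and Hadhb encode the alpha and beta subunits of the mitochondrial trifunctional protein, which completes the turn for long chains. Hadha was at 273, 287, 297 and 365 CPM in saline 1 to 4 and 271, 297 and 299.8 CPM in DXZ 1 to 3, and Hadhb at 200.4, 214, 212 and 252 CPM in saline 1 to 4 and 184, 218 and 213 CPM in DXZ 1 to 3. The pair was among the steadiest members, with a 1.35-fold and a 1.37-fold range over all 7 libraries. Hadha had a log2 fold change of -0.08 (adjusted p = 0.745 by edgeR) and Hadhb one of -0.10 (adjusted p = 0.643 by edgeR). The ratio of their FPKM stayed between 1.01 and 1.11 in every library. The genes lie head to head on chromosome 5, 85 bases apart, and this gap is shown because both transcripts start at its ends (GRCm38.p6, plus strand, capitals as above).
Hadha to Hadhb gap, chr5:30155163-30155247: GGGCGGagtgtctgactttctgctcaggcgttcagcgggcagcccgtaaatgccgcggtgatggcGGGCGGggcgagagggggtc
It was 69.4% G and C and held 2 matches to GGGCGG. A sequence of Hadhb transcripts is repeated in the annotated gene Gm13910, which held 14.8% of the 100-base words of Hadhb, so its counts are less certain than those of Hadha. Acaa2, which releases acetyl-CoA at the end of each turn, was at 278, 368, 491 and 516 CPM in saline 1 to 4 and 294, 382 and 412 CPM in DXZ 1 to 3 (log2 fold change -0.19 ± 0.23 (SE), adjusted p = 0.657 by edgeR), with saline 1 the lowest of the 7 libraries.

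Unsaturated chains need an isomerase and a reductase before they can pass through the spiral. Eci1, the mitochondrial isomerase, was at 126, 141, 209 and 207 CPM in saline 1 to 4 and 184, 258 and 293 CPM in DXZ 1 to 3. DXZ 2 and DXZ 3 were above all saline libraries and DXZ 1 was within them, and the difference did not pass (log2 fold change 0.52 ± 0.23 (SE), adjusted p = 0.199 by edgeR). Decr1, the mitochondrial dienoyl-CoA reductase, was at 323, 321, 358 and 354 CPM in saline 1 to 4 and 326, 383 and 429 CPM in DXZ 1 to 3 (log2 fold change 0.16 ± 0.12 (SE), adjusted p = 0.449 by edgeR). It showed the same order within DXZ, with DXZ 1 inside the saline range.

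The electron transfer flavoprotein, a dimer of Etfa and Etfb products, collects electrons from the dehydrogenases, and Etfdh passes them to ubiquinone. Etfa and Etfdh had log2 fold changes of -0.21 (adjusted p = 0.427 by edgeR) and -0.27 (adjusted p = 0.305 by edgeR). Etfb was at 35.1, 35.1, 36.7 and 43.8 CPM in saline 1 to 4 and 49.9, 30.2 and 63.5 CPM in DXZ 1 to 3 (log2 fold change 0.35 ± 0.23 (SE), adjusted p = 0.376 by edgeR), and its DXZ libraries bracketed the saline range. The FPKM ratio of Etfa to Etfb ran from 5.34 to 6.41 in saline and was 3.27, 5.37 and 3.57 in DXZ 1 to 3. The annotated gene Gm45233 shares 53.0% of the exon bases of Etfb on the same strand, so the counts of Etfb are uncertain.

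Pdk4 and Acot2 were the mitochondrial members that varied most. Pdk4, a kinase that shuts pyruvate out of the citrate cycle when fat is burned, was at 119, 152, 182 and 373 CPM in saline 1 to 4 and 164, 493 and 514 CPM in DXZ 1 to 3. DXZ 2 and DXZ 3 were above every saline library, DXZ 1 was among the lower saline libraries, and saline 4 stood above the other saline libraries. The log2 fold change was the largest of the 31 and did not pass (log2 fold change 0.92 ± 0.48 (SE), adjusted p = 0.272 by edgeR, 95% interval -0.18 to 2.01). It was 1.28 without DXZ 1 (edgeR adjusted p = 0.0807). Acot2, a thioesterase of the mitochondrial matrix, was at 45.6, 64.8, 86.0 and 122 CPM in saline 1 to 4 and 59.6, 119.7 and 119 CPM in DXZ 1 to 3 (log2 fold change 0.32 ± 0.35 (SE), adjusted p = 0.616 by edgeR), with saline 4, DXZ 2 and DXZ 3 high and saline 1 lowest.

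Among the peroxisomal members both oxidases were lower in DXZ on average. Acox2, which acts on branched chains and bile acid intermediates, was at 95.1, 117, 107 and 142 CPM in saline 1 to 4 and 63.4, 74.0 and 106 CPM in DXZ 1 to 3. DXZ 3 overlapped the saline libraries, and the difference did not pass (log2 fold change -0.51 ± 0.20 (SE), adjusted p = 0.165 by edgeR). The next enzymes are bifunctional. Ehhadh was at 1190.4, 738, 1454 and 1554 CPM in saline 1 to 4 and 510.2, 1378 and 1793 CPM in DXZ 1 to 3, a 3.51-fold range with DXZ libraries at both ends (log2 fold change -0.01 ± 0.42 (SE), adjusted p = 0.992 by edgeR, 95% interval -0.97 to 0.95). Hsd17b4, the bifunctional enzyme needed for very long and branched chains, was at 323, 353, 389 and 409 CPM in saline 1 to 4 and 343, 405 and 476 CPM in DXZ 1 to 3 (log2 fold change 0.15 ± 0.14 (SE), adjusted p = 0.565 by edgeR), a 1.48-fold range.

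The peroxisomal thiolases Acaa1a and Acaa1b cleave the shortened chain. Acaa1a was at 187, 161, 143 and 181 CPM in saline 1 to 4 and 137, 133 and 166 CPM in DXZ 1 to 3 (log2 fold change -0.21 ± 0.13 (SE), adjusted p = 0.352 by edgeR), and Acaa1b at 622, 361, 386 and 456 CPM in saline 1 to 4 and 291, 433 and 679 CPM in DXZ 1 to 3 (log2 fold change 0.03 ± 0.30 (SE), adjusted p = 0.957 by edgeR). Acaa1b was the more variable of the pair, lowest in DXZ 1 and highest in DXZ 3. The FPKM ratio of Acaa1b to Acaa1a was 5.06 to 7.50 in saline and 4.77, 7.32 and 9.22 in DXZ 1 to 3. The 2 genes share sequence: 19.3% of the 100-base words in Acaa1b transcripts occur in Acaa1a transcripts, and how reads matching both were counted is not given in the sources used here. Abcd3, the transporter that brings acyl-CoAs and bile acid intermediates into peroxisomes, was at 596, 525, 528 and 538 CPM in saline 1 to 4 and 364, 559 and 555 CPM in DXZ 1 to 3 (log2 fold change -0.15 ± 0.17 (SE), adjusted p = 0.625 by edgeR). Only DXZ 1 lay outside its saline range. Pex11a, which promotes peroxisome division, was at 105, 94.4, 109 and 142 CPM in saline 1 to 4 and 82.0, 127 and 179 CPM in DXZ 1 to 3 (log2 fold change 0.20 ± 0.25 (SE), adjusted p = 0.674 by edgeR).

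The 5 members of both or other compartments did not pass either. Ech1 and Eci2, isomerases found in mitochondria and peroxisomes, had log2 fold changes of -0.15 (adjusted p = 0.641 by edgeR) and 0.18 (adjusted p = 0.589 by edgeR). Crat, which makes acetylcarnitine in both organelles, was at -0.29 (adjusted p = 0.325 by edgeR). Acsl1, which activates long-chain fatty acids at the outer mitochondrial membrane and the endoplasmic reticulum, was at 298, 186, 366 and 433 CPM in saline 1 to 4 and 146, 291 and 323 CPM in DXZ 1 to 3 (log2 fold change -0.34 ± 0.34 (SE), adjusted p = 0.579 by edgeR), lowest in DXZ 1. Acot1, the cytosolic thioesterase, was at 214, 268, 436 and 560.4 CPM in saline 1 to 4 and 199, 424 and 475 CPM in DXZ 1 to 3 (log2 fold change -0.02 ± 0.39 (SE), adjusted p = 0.985 by edgeR), and saline 1, saline 2 and DXZ 1 were its lowest libraries. Acot1 and Acot2 lie 15616 bases apart on chromosome 12 and share sequence: 17.1% of the 100-base words of Acot2 transcripts occur in Acot1 transcripts. Their FPKM ratio, Acot1 over Acot2, was 2.32 to 2.84 in saline and 1.87, 1.98 and 2.23 in DXZ 1 to 3. These ratios did not overlap, but the pair was singled out after its values were seen and its counts are not fully separate, so no test was made.

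Within the DXZ group, DXZ 1 was below DXZ 3 for 31 of 31 members, against 49.5% of all genes tested. DXZ 1 was below DXZ 2 for 24 of 31 members, against 7273 of the 15351 genes tested. DXZ 2 was the lowest of all 7 libraries for 7 members, against 19.2% of all genes tested. The median ratio of DXZ 3 to DXZ 1 was 1.47 over the members and 0.996 over all genes tested. DXZ 1 was the lowest of all 7 libraries for 18 members (58.1%), against 2458 of the 15351 genes tested, and the highest for 0. The largest ratios of DXZ 3 to DXZ 1 were those of Ehhadh, 3.51, Pdk4, 3.13, Acot1, 2.38, and Acaa1b, 2.33, and the smallest those of Acox3, 1.10, Acadvl and Hadha, both 1.11. Saline 4 was the highest library for 15 members and DXZ 3 for 10, the remaining 6 being highest in saline 1. Over all genes tested these libraries were the highest for 11.9%, 16.3% and 19.4%. This is a description of single libraries and has no replicate check.

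**Figure D4:**
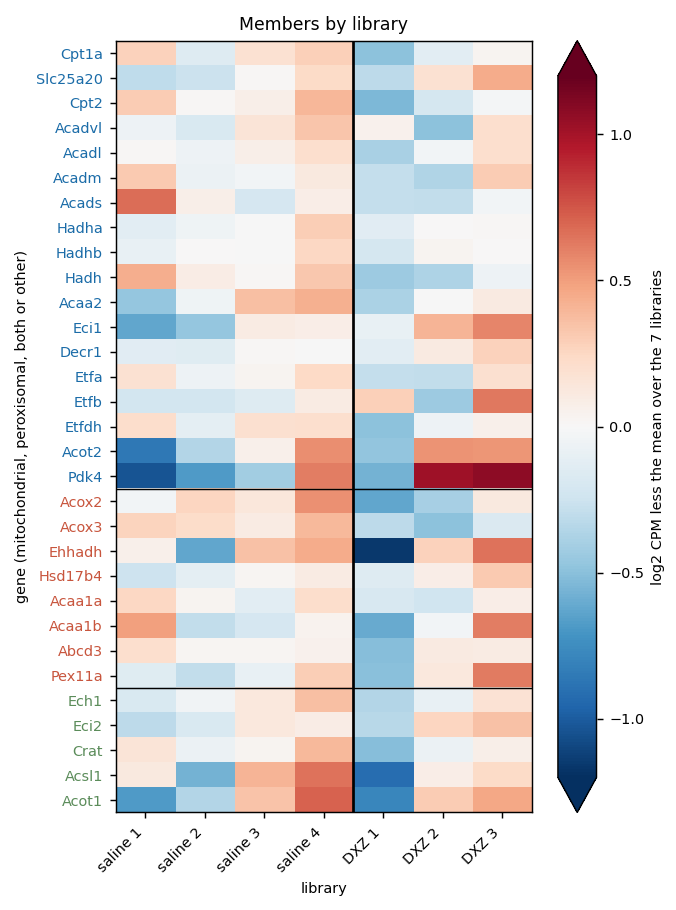
Log2 CPM of each member less its mean over the 7 libraries, with saline left and DXZ right of the vertical line and mitochondrial, peroxisomal and other members in blocks from the top. DXZ 1 is the lowest of the 7 libraries for 18 of 31 members, and Ehhadh, Pdk4, Acot1 and Acsl1 show the strongest colours.

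The median of the peroxisomal members, as log2 CPM centred on the 7 libraries, was 0.13, -0.05, 0.03 and 0.25 over the saline libraries, in order, against -0.51, 0.02 and 0.22 over the DXZ libraries. The mitochondrial median was -0.07, -0.09, 0.02 and 0.24 against -0.30, -0.04 and 0.19. In both sets DXZ 2 and DXZ 3 lay within the saline range and DXZ 1 below it. Summed markers of other cells were above the saline range in DXZ 1 and below it in DXZ 2 and DXZ 3. Summed over 15 macrophage and other leukocyte markers, the level was 266 to 413 CPM in saline, 609 CPM in DXZ 1 and 246 and 207 CPM in DXZ 2 and DXZ 3. The sum of 10 fibroblast and mural cell markers was 276 to 679 CPM in saline and 929.6, 173 and 128 CPM in DXZ 1 to 3, and that of 10 endothelial markers 386 to 684 CPM in saline and 744, 184 and 124 CPM in DXZ. By centred list median, DXZ 1 was close to saline 2 for endothelium (0.77 against 0.74) and for fibroblast and mural cells (1.01 against 0.96). For leukocytes the medians were 1.23 and 0.55. DXZ 2 and DXZ 3 were below every saline library by the median in all 3 lists. The leukocyte genes Cd68 and Cd14 went the other way, with every DXZ library above every saline library. Cd68 was at 8.0 to 16.9 CPM in saline and 40.6, 57.0 and 32.1 CPM in DXZ 1 to 3. Cd14 was at 24.9 to 38.6 CPM in saline and 53.6, 67.1 and 65.7 CPM in DXZ 1 to 3. No listed marker of the 3 types was at 0 in every library, but Cd3e, which defines T cells, had 14 counts in all. Adipoq, which defines adipocytes, was at 0.235 to 20.0 CPM in saline and at most 10.8 CPM in DXZ. The mitochondrial genome gave 5.18% of counts in DXZ 1 and up to 8.35% in the other libraries. The part of these values in the low values of DXZ 1 was not tested.

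**Figure D5:**
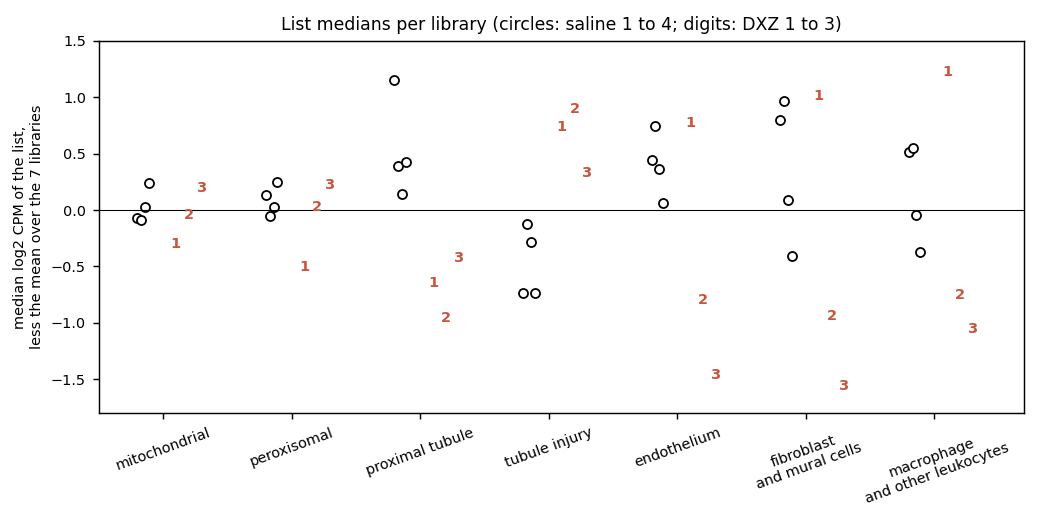
Median log2 CPM of each gene list less the mean over the 7 libraries; circles are saline 1 to 4 and digits DXZ 1 to 3. In both sets of members DXZ 1 lies below the saline libraries and DXZ 2 and DXZ 3 among them, while all 3 DXZ libraries lie below the saline libraries for the proximal tubule list.

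Proximal tubule cells are a main site of these enzymes in kidney. Of 34 genes listed for them, 11 fell and the rest did not pass, at a median log2 fold change of -1.16; without saline 4 or without DXZ 2 none of the 34 passed edgeR's test, with medians of -1.24 and -1.01, and 5 and 3 passed without saline 2 and without DXZ 3. Their centred median was 0.14 to 1.15 in saline and -0.64, -0.96 and -0.42 in DXZ 1 to 3. Saline 1, the highest library for the tubule list, was the highest of all 7 libraries for 6 members and the lowest for 5. Over all genes tested it was the highest for 19.4% and the lowest for 20.0%, so these counts are near the background. Of 20 tubule injury genes 7 rose, with a median of 1.16, and again none passed without saline 4 or DXZ 2. Among other kidney cells, 1 of 10 genes of the thick ascending limb, 2 of 7 of the distal convoluted tubule and 1 of 9 of the podocyte fell, while 1 of 13 of the collecting duct rose; none of these passed without saline 4 or DXZ 2. Markers of non-epithelial cells depended on DXZ 1. With all libraries, 2 of 12 leukocyte genes rose (median 0.11), and of 10 endothelial and 10 fibroblast and mural cell genes none passed edgeR's test (medians -0.63 and -0.25; 0 and 1 at an unadjusted p under 0.05). Without DXZ 1, 4 leukocyte genes were called lower and 2 higher (median -1.11), and 10 endothelial (median -1.45) and 4 fibroblast and mural cell genes (median -1.75) were called lower. Without saline 4 or DXZ 2, no gene of these 3 lists passed. Of the 31 members, 21 had a negative fold change and 10 a positive one. Acox3, Hadh and Cpt2 were singled out for low DXZ values, so sharing the sign of the proximal tubule median is not a result. The part of the tubule list in the values of the members was not tested.

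Further genes of the pathway and of related oxidation, which are not members, were taken from lists. Not all of them act on fatty acids: Dao, counted in the peroxisomal list, oxidises D-amino acids. Of 21 tested genes for other mitochondrial acyl-CoA oxidation 4 fell and 17 did not pass (median log2 fold change -0.49). They were Slc22a5, the plasma membrane carnitine transporter, at -0.63 (adjusted p = 0.0215 by edgeR), Mut, methylmalonyl-CoA mutase of propionate breakdown, at -1.23 (adjusted p = 0.0278 by edgeR), Acadsb, a dehydrogenase of short branched chains, at -0.64 (adjusted p = 0.0355 by edgeR), and Acad11, another acyl-CoA dehydrogenase, at -0.49 (adjusted p = 0.0429 by edgeR). Of 23 for other peroxisomal oxidation 3 fell and 20 did not pass (median -0.44). Hao2, a hydroxyacid oxidase, was at 477, 255, 177 and 279.7 CPM in saline 1 to 4 and 59.9, 27.6 and 37.7 CPM in DXZ 1 to 3 (log2 fold change -2.83 ± 0.40 (SE), adjusted p = 0.0204 by edgeR). All DXZ libraries were far below saline. Dao, D-amino acid oxidase, was at -1.57 (adjusted p = 0.0264 by edgeR) and Slc27a2, a very long chain acyl-CoA synthetase and transporter, at -0.84 (adjusted p = 0.0333 by edgeR).

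Peroxisome biogenesis genes had a median of -0.13 over 20 genes, of which 2 fell, Pxmp2, a peroxisomal membrane channel, at -0.66 (adjusted p = 0.0437 by edgeR), and Pex7, the receptor that imports Acaa1a-type thiolases, at -0.43 (adjusted p = 0.0486 by edgeR). Citrate cycle genes had a median of -0.20 over 23, with Sucla2 and Suclg2, subunits of succinyl-CoA ligases, both called lower, at -0.50 (adjusted p = 0.0376 by edgeR) and -0.73 (adjusted p = 0.0452 by edgeR). Of 8 ketone body genes 1 fell, Bdh2, at -1.07 (adjusted p = 0.0216 by edgeR). Genes of PPARs and their coactivators had a median of -0.08. Of 20 genes edgeR called 0, also 0 when any 1 library was left out, and 3 had an unadjusted p under 0.05. Other tools were fitted on all genes tested, but their calls were not read for this list. Ncoa1, a coactivator of nuclear receptors, had the lowest edgeR adjusted p, 0.0971. Ppara was at 48.6, 26.0, 30.5 and 26.3 CPM in saline 1 to 4 and 30.0, 26.7 and 26.3 CPM in DXZ 1 to 3, with saline 1 above the other 6 libraries. Its log2 fold change was -0.25 (adjusted p = 0.529 by edgeR) with all libraries and -0.0011 without saline 1. Its coactivator Ppargc1a was at -0.24 (adjusted p = 0.490 by edgeR).

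Other PPARA targets went both ways, and 2 rose and 1 fell of 23 tested (median -0.08, but 0.08 without saline 4 and 0.10 without DXZ 1). Plin2, which coats lipid droplets, was at 421, 538, 539.6 and 669.9 CPM in saline 1 to 4 and 885, 1647 and 1815 CPM in DXZ 1 to 3. All DXZ libraries were above all saline libraries, DXZ 1 least (log2 fold change 1.42 ± 0.26 (SE), adjusted p = 0.0303 by edgeR). Ucp3, an uncoupling protein at a low level, was at 1.73 (adjusted p = 0.0434 by edgeR), and Cyp2j5, a kidney epoxygenase, fell, at -1.31 (adjusted p = 0.0424 by edgeR). Cyp4a14, a fatty acid hydroxylase, was at 291, 1206, 3965 and 4314 CPM in saline 1 to 4 and 579.8, 2845 and 3549 CPM in DXZ 1 to 3. It had low values in saline 1, saline 2 and DXZ 1 and high values in the other 4 libraries, and it did not pass (log2 fold change -0.07 ± 0.88 (SE), adjusted p = 0.970 by edgeR). Lipid droplet genes had a median of 0.13 over 17, and 2 rose, Plin2 and Hilpda, an inhibitor of lipolysis, at 1.55 (adjusted p = 0.0223 by edgeR). The lipid droplet median was -0.04 without DXZ 3 and 0.19 without DXZ 1, where 5 genes were called higher, and 0 were called without saline 4, DXZ 2 or DXZ 3. Cd36, a fatty acid uptake receptor, was at 0.19 (adjusted p = 0.628 by edgeR). Of 18 called genes of these lists that were refitted without each library, Slc34a1 and Lrp2 included, 0 kept their call without saline 4 or without DXZ 2, 2 without DXZ 3, and 15 without DXZ 1.

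PPARA binds DNA with RXR at the DR1 element, AGGTCA repeated in the same direction after 1 base of any kind. Sites with at most 2 mismatches to its 12 fixed letters, on either strand, were found in 3 of 30 windows of members and in 3.86% of all windows. The half-site AGGTCA went the other way, being found in 3 of 30 windows of members and in 16.3% of all windows. Whether either share differs from the background was not tested. The 3 DR1 sites are shown as the closest promoter matches among the members, on the gene's strand. The 13 matched bases are in capitals, with 8 bases on each side.
Etfa, chr9:55512300-55512328, minus strand: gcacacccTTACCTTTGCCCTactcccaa
Slc25a20, chr9:108662134-108662162, plus strand: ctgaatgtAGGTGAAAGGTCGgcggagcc
Acox2, chr14:8258810-8258838, minus strand: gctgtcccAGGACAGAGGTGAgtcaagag
The Etfa match lies on the opposite strand and begins 77 bases before the start; the others begin 6 and 9 bases after it. The 3 genes had log2 fold changes of -0.21, 0.20 and -0.51, and none passed. A match is a description of letters in this window and not evidence of a bound site.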

How the data were processed

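RNA-seq of 7 mouse kidney libraries was used, 4 labelled saline and 3 labelled DXZ, grouped by their titles. The authors deposited whole-number read counts per gene without normalization, and FPKM values that equal those counts divided by gene length and 1 constant per library. HISAT2, StringTie and mm9 are named in the submitters' processing notes, without roles. Gene coordinates matched GENCODE M21 (GRCm38) for 98.3% of 54495 shared identifiers and are given as GRCm38. The counting program and its strand setting were not stated.

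Counts were fitted in R 4.3.3 with edgeR 4.0.16: filterByExpr (15351 genes kept), TMM, quasi-likelihood F test, Benjamini-Hochberg over all genes tested, adjusted p below 0.05. SEs are fold change over the square root of F, and 95% intervals use the fitted degrees of freedom. Alternatives were median-of-ratios scaling, no filter, 1 CPM in 3 libraries, robust dispersions, limma-voom (3.58.1) with sample quality weights, and DESeq2 1.42.0. Others were limma on log2 FPKM with a pseudocount of 1 or 0.1, each library left out, the replicate block and other compartment assignments. The members, lists and compartments were chosen with earlier results of these data known. The rule for named genes took all members, up to 4 genes of lowest adjusted p per other list, and 11 fixed genes, of which some are not reported here. Genes of other lists were rerun without each library after the data were seen. Promoters are RefSeq's (GRCm38.p6).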

Additional observations from a re-analysis of the deposited data

Results flagged for a closer look

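Of 34 sets of 4 saline libraries examined (31 members and 3 set medians), 1 held a library far from the other 3: Etfdh in saline 2, at 183 CPM against 226 to 229 CPM, with a gap of 0.938 of the whole range, past Dixon's 95% critical value for 4 values. Chance flags about 1 in 20 such sets.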

How the results depend on the processing

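Over 16 alternatives of test, scaling, filter, unit, block and left-out library, 23 of 31 members kept the sign of their fold change. Acox3 kept its negative sign in all 16 (-0.66 to -0.51) and its call in 9, with adjusted p-values from 0.000194 to 0.125. Hadh was the other member with a changed call, by DESeq2. DESeq2 called 2126 genes and 2 members. Leaving out 1 library gave 1 to 1574 genes, 0 to 1 members and, for the mitochondrial less the peroxisomal median, -0.19 to 0.0599. The mitochondrial median ran from -0.27 to -0.04 and the peroxisomal one from -0.33 to 0.14 over left-out libraries. At an unadjusted p under 0.05 edgeR gave 4 to 7 members when a library was left out. By limma-voom with sample quality weights, Ehhadh was at 0.0835 and Acot1 at 0.0185. On log2 of FPKM plus 1 or plus 0.1, Acaa1b was at -0.0229 and -0.0232. Over left-out libraries the changes of sign gave ranges of -0.28 to 0.0402 for Acadvl, -0.26 to 0.0317 for Acadl, -0.13 to 0.0176 for Hadha, -0.38 to 0.36 for Ehhadh, -0.34 to 0.28 for Acaa1b, -0.26 to 0.0281 for Abcd3, -0.11 to 0.44 for Pex11a, -0.25 to 0.28 for Acot1 and -0.50 to 0.39 for Cyp4a14. The cause of these changes was not tested.

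The labels do not say whether the replicate numbers pair the samples. Deviations from the group mean correlated at 0.26, -0.09 and 0.23 across genes for numbers 1, 2 and 3. Saline 2 correlated best with DXZ 1 (0.43). Deviations within a small group are tied to each other, so these values cannot decide the pairing. With the number as a block, edgeR called 85 genes and 0 members (5 members at an unadjusted p under 0.05); Acox3 was at -0.53 (edgeR adjusted p = 0.125), and Hadha at 0.0186, Ehhadh at 0.00715, Acot1 at 0.22 and Cyp4a14 at 0.70 changed sign.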
